A study of Mus musculus with 48 samples.

Results

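Spon2, Prss23, Sh3pxd2b and Tmem140 are 4 genes outside the core clock, taken from the 11313 genes of the deposited exon and intron tables and were chosen by the daily pattern of their newly made intron RNA, which differed between 2 fibroblast lines. The values that selected them are therefore those of intron RNA in the 4sU libraries: among 10509 genes ordered by the F statistic for a difference of the 24-h wave between the lines, which weighs the size of the difference against its error, Spon2 stood at rank 1, Prss23 at 6, Sh3pxd2b at 12 and Tmem140 at 13. Of these 13 leading genes, 8 were in a list of clock genes and 1 other, Col4a1, was neither a clock gene nor one of the 4. All 4 passed the filters on low values in every kind of RNA. Everything read from the 4sU libraries is given below as a description, with no test, and tests were made in the total RNA libraries, which were sequenced separately but came from the same cultures.

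The cells were NIH 3T3, an established line of mouse embryonic fibroblasts, grown in DMEM with fetal bovine serum. A line carrying a control short hairpin (shCTRL) was compared with a line carrying a hairpin against Bmal1 (shBmal1), the clock activator whose gene is listed as Arntl. Both were synchronised for 2 h in medium with 50% horse serum and sampled every 2 h over the time points labelled 24 to 46, read here as hours. At each time point RNA labelled with the uridine analogue 4sU was pulled down from 30 µg of RNA (newly made RNA) and the rest was kept as total RNA, which made 4 groups of 12 libraries and 48 libraries in all. The pulled-down share was larger for shBmal1 than for shCTRL according to the protocol. There was 1 library per line, RNA kind and time point and 1 stable line of each kind, so that an effect of the hairpin and a difference between 2 lines cannot be told apart, and p-values measure the scatter of time points about a fitted wave. The window covers 1 day, so a wave that would repeat and a single rise and fall cannot be told apart.

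The clock of most mammalian cells rests on BMAL1 and CLOCK, which bind E-box sequences and drive genes such as the Period and Cryptochrome repressors, while REV-ERB and ROR receptors feed back on Arntl. In cultured fibroblasts a serum pulse sets these loops in step. The 4 genes have no place in that loop. Spon2 encodes spondin 2 (mindin), a secreted matrix protein of the F-spondin family. Prss23 encodes a secreted serine protease. Sh3pxd2b encodes TKS4, an adaptor with a PX domain and SH3 domains that serves as a scaffold of podosomes and invadopodia. Tmem140 encodes a small transmembrane protein known as an interferon-inducible gene.

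In the mouse assembly GRCm38.p6 (RefSeq), Spon2 lies at chr5:33213518-33218254, Prss23 at chr7:89507783-89527187, Sh3pxd2b at chr11:32347773-32428189 and Tmem140 at chr6:34863146-34874946. RefSeq promoter windows, from 250 bases before to 50 bases after a start, were found for Tmem140 (1), Sh3pxd2b (1) and Prss23 (7). The stretches before the gene are shown for Sh3pxd2b (chr11:32347590-32347772, + strand) and Tmem140 (chr6:34862896-34863145, + strand), and for Prss23 the 19 bases that hold 2 neighbouring matches before an internal start (chr7:89518344-89518362, − strand), so that the letters behind the motif search can be seen. Capitals mark the matches of the motifs named after them.
Sh3pxd2b: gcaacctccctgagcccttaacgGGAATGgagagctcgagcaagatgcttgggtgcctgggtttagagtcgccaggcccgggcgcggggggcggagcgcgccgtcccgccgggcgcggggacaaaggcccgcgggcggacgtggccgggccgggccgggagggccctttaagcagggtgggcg
Tmem140: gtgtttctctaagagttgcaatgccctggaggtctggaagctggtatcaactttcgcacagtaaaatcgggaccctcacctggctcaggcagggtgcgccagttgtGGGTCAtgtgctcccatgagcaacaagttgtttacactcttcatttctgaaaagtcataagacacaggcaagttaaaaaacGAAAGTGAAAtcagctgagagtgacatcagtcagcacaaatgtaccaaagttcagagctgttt
Prss23: AGGTCAccaggcTGACTCA

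Both strands were searched. None of the 9 windows held the E-box CACGTG, the related CACGTT or the D-box TTANGTAA, which were present in 7.15%, 4.69% and 2.32% of 32851 RefSeq windows of the same length. Sh3pxd2b held 1 match of GGAATG, the letters of TEAD factors, 227 bases before the start, and 14.7% of all windows held one. Tmem140 held the nuclear receptor half-site GGGTCA 144 bases before the start (13.7% of all windows). It also held a pair of GAAA runs with 2 bases between them, as in interferon-stimulated response elements, 63 bases before the start (3.44% of all windows), a motif added after the windows were seen. In Prss23, AGGTCA (16.3% of all windows) and the AP-1 letters TGANTCA (7.81%) stood 158 and 146 bases before an internal start that lies within the gene. The same window held a second AGGTCA 250 bases before that start, and the window next to it on the same strand overlaps the 19 bases shown. Since 7 windows were searched for Prss23, the shares, which are per window, do not give the chance of a match in any of them. A match is a run of letters and was not tested for binding.

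The libraries held 48873013 to 76260143 reads, as recovered from the whole-read steps in the RPKM values (read density per transcript length and library size). The least covered exon value of a member, Tmem140 in shBmal1 total RNA, rested on 403 reads, a counting error of 4.98%. The least covered intron value, Tmem140 in shBmal1 total RNA, rested on 130 reads, a counting error of 8.77%. Intron RPKM in the shBmal1 4sU libraries had been divided by totals of 70596582 to 94210659, larger than those of the same libraries' exon values, which moved the median line difference of all genes to −0.45 on the log2 scale. All values below are therefore RPKM divided by a median-of-ratios size factor computed within each RNA kind and feature (scaled RPKM), which brings that median to 0.01.

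Exon RNA of the targeted gene was lower in shBmal1. Arntl exon RNA in total libraries ran from 1.33 to 17.4 scaled RPKM in shCTRL (median 8.73) and from 2.25 to 4.72 in shBmal1 (median 3.95). Its mean log2 level was 0.92 ± 0.08 (SE) lower in shBmal1 (limma adjusted p = 3.7e-09), and lower at 9 of 12 time points. At 24, 26 and 46 h, when shCTRL cells had little of it, shBmal1 was the higher. Arntl intron RNA in total libraries was instead 0.51 ± 0.06 higher in shBmal1 (limma adjusted p = 1.98e-06), and higher at 8 of 12 time points, as it was in the 4sU libraries. Of the fibroblast marker list, 10 of 12 genes were in the tables, and their summed level was 6027 to 6814 scaled RPKM in shCTRL and 4933 to 5912 in shBmal1. Of these 10, 7 were lower in shBmal1 and 3 (Vim, Col1a1 and S100a4) higher, with a median difference of −0.67. Pdgfra, a fibroblast receptor gene, went from a median of 72.0 to 22.7 scaled RPKM and Dcn, which encodes decorin, from 142 to 54.5. Of 16 markers of other cell types 5 were in the tables, all above 0 in every total library, with sums of 8.38 to 13.5 scaled RPKM in shCTRL, below the 18.1 to 25.8 of shBmal1. The part of these marker differences in the results below was not tested. In these bulk samples, fewer cells that make an RNA and less of it per cell cannot be told apart.

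Total exon RNA asked whether the difference in synthesis that chose the 4 genes was also seen in libraries the choice had not used. These libraries came from the same cultures as the 4sU libraries and are no independent repeat. A difference was called for 2 of the 4 genes. The 24-h wave of Spon2 and of Sh3pxd2b in total exon RNA was smaller in shBmal1 than in shCTRL, whereas that of Prss23 and Tmem140 did not pass the test of a difference. Of 10912 genes tested, 93 (0.852%) passed this test at an adjusted p under 0.05. Of those 93, 66 had the lower amplitude in shBmal1 and 27 the higher. Leaving out each time point in turn gave 39 to 172 such genes, the fewest without 38 h or without 40 h and the most without 32 h. Here the amplitude is the height of the fitted peak above the fitted mean on the scale of log2(scaled RPKM + 0.1).

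**Figure D1:**
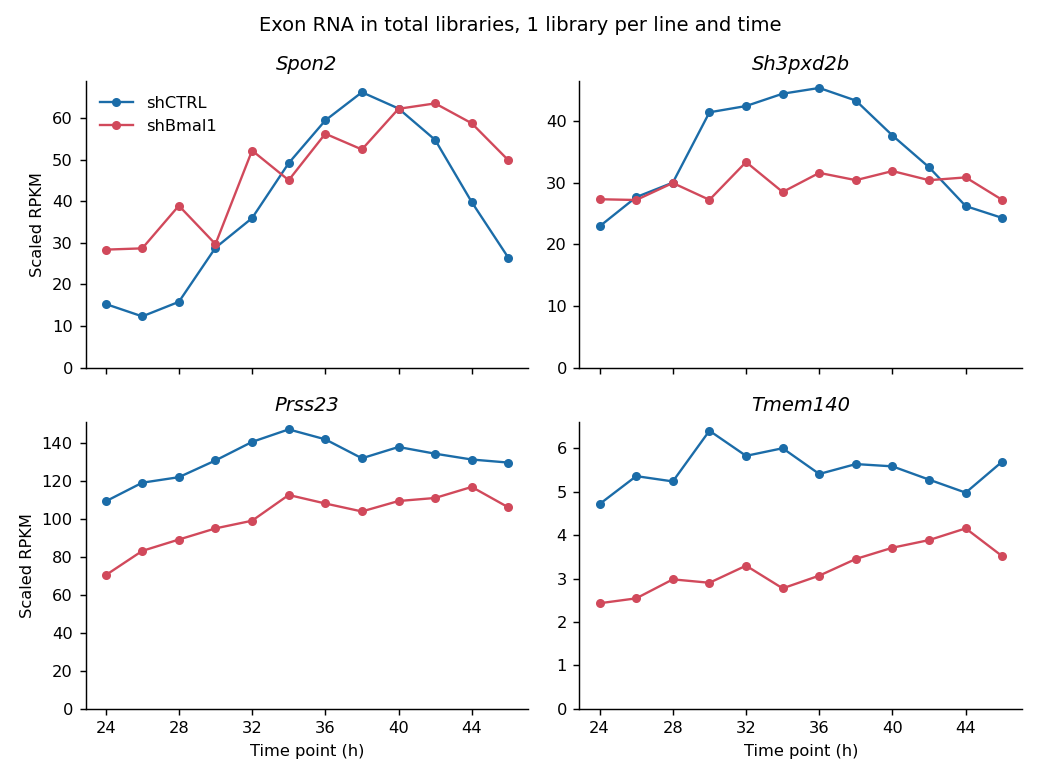
Scaled RPKM of exon RNA in total libraries (y axis, from 0) against time point in hours (x axis) for each gene, 1 library per point, shCTRL in blue and shBmal1 in red. Spon2 in shCTRL spans 12.3 to 66.2 and starts higher in shBmal1, Sh3pxd2b is nearly level in shBmal1 at 27.2 to 33.4, and the 2 lines do not overlap for Tmem140.

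Spon2, the secreted matrix protein, had the deepest daily swing of the 4 genes. In shCTRL total exon RNA it was 15.3, 12.3 and 15.8 scaled RPKM at 24, 26 and 28 h, 28.8, 36 and 49.2 at 30, 32 and 34 h, 59.4, 66.2 and 62.3 at 36, 38 and 40 h, and 54.8, 39.8 and 26.4 at 42, 44 and 46 h. In shBmal1 it was 28.4, 28.7 and 38.9 at the first 3 time points, 29.7, 52.2 and 45.1 at the next 3, 56.2, 52.4 and 62.2 at 36 to 40 h, and 63.5, 58.7 and 49.9 at 42 to 46 h. The lines overlapped at the top of the wave and parted at its foot: shBmal1 was the higher at 24 to 32 h and 42 to 46 h, by up to 1.29 on the log2 scale at 28 h, and the lower at 34 to 40 h, by at most 0.34.

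The fitted 24-h amplitude of Spon2 was 1.12 ± 0.07 (SE) in shCTRL, a 4.72-fold change from trough to peak, with the peak at 38.1 ± 0.2 h. In shBmal1 it was 0.50 ± 0.07, a 1.99-fold change, with the peak at 39.4 ± 0.5 h. The amplitude was thus lower by 0.62 ± 0.09 in shBmal1, and the 2 waves differed, peak time included, by 0.67 (limma adjusted p = 0.00161, rank 19 of 10912 by F), and the adjusted p lay between 1.76e-05 and 0.0288 over the fits that left out 1 time point. The shCTRL wave passed its own test (adjusted p = 1.57e-09), as 3.63% of all genes did. The shBmal1 wave passed as well (adjusted p = 0.000667, against 11.2% of all genes), but with a linear trend in time added to the fit its amplitude was 0.31 and the adjusted p 0.399. The mean level was 0.43 ± 0.07 higher in shBmal1 (adjusted p = 1.06e-05), a direction in which 34.3% of all genes passed.

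Sh3pxd2b, the podosome scaffold, was nearly level in shBmal1. Its total exon RNA in shCTRL was 22.9, 27.7 and 30.0 scaled RPKM at 24, 26 and 28 h, stood between 41.4 and 45.4 from 30 to 38 h with its highest value at 36 h, and came down through 37.7, 32.5 and 26.2 to 24.3 at 46 h. In shBmal1 the 12 values lay between 27.2 and 33.4, with a median of 30.2. The ranges overlap because the shCTRL values at the edges of the day fall to or under the shBmal1 level, while from 30 to 38 h every shCTRL value was above every shBmal1 value.

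The amplitude of Sh3pxd2b was 0.48 ± 0.04 in shCTRL, a 1.96-fold change with the peak at 35.0 ± 0.3 h (adjusted p = 3.45e-08). In shBmal1 it was 0.09 ± 0.04 with the peak at 37.4 ± 1.5 h, and that wave did not pass (adjusted p = 0.218). The amplitude was lower by 0.39 ± 0.05 in shBmal1. The waves differed by 0.42 (limma adjusted p = 0.00027, rank 11 of 10912), and the adjusted p stayed between 9.44e-05 and 0.00473 when 1 time point was left out. The mean level was 0.19 ± 0.04 lower in shBmal1 (adjusted p = 6.22e-05), as was the case for 33.2% of all genes.

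Prss23, the secreted protease, was the most abundant of the 4 per length and was lower in shBmal1 at all 12 time points. The share of all genes that were lower at all 12 was not computed. Total exon RNA ran from 109 scaled RPKM at 24 h to 147 at 34 h in shCTRL (median 132) and from 70.4 at 24 h to 117 at 44 h in shBmal1 (median 105). The ranges of the lines overlapped only through the lowest shCTRL value, that of 24 h, which the shBmal1 values at 34, 40, 42 and 44 h passed. The mean was 0.40 ± 0.04 lower (limma adjusted p = 2.98e-08), a direction in which 33.2% of all genes passed. The amplitude was 0.13 ± 0.04 in shCTRL (limma adjusted p = 0.144). In shBmal1 it was 0.21 ± 0.04 with the peak at 38.6 ± 0.7 h (adjusted p = 0.00523, against 11.2% of all genes passing). With a linear trend the shBmal1 amplitude was 0.13 with an adjusted p of 0.293. The difference between the waves was 0.12 and did not pass (adjusted p = 0.57, rank 2271).

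Tmem140 was the lowest in level and the one whose lines did not overlap in total exon RNA, as was so for 12.9% of all genes tested. It ran from 4.72 to 6.41 scaled RPKM in shCTRL (median 5.50) and from 2.43 to 4.16 in shBmal1 (median 3.18). The highest shCTRL value was at 30 h and the highest shBmal1 value at 44 h. The mean was 0.77 ± 0.05 lower in shBmal1 (limma adjusted p = 2.26e-11), a direction in which 33.2% of all genes passed. The gap was widest at 30 h, 1.12 on the log2 scale, and narrowest at 44 h, 0.25.

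The wave of Tmem140 total exon RNA was 0.10 ± 0.05 in shCTRL (limma adjusted p = 0.52). In shBmal1 it was 0.23 ± 0.05 with the peak at 40.9 ± 0.8 h (adjusted p = 0.0113, against 11.2% of all genes passing). The shBmal1 call was lost without the 40 h time point (adjusted p = 0.0593) and with a linear trend, where the amplitude was 0.072 (adjusted p = 0.919). The difference between the waves, 0.29, did not pass (adjusted p = 0.109, rank 200). A 12-h wave that differed between the lines was called for none of the 4 genes and for 0 of 10912 genes by limma, with 508 genes at an unadjusted p under 0.05.

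**Figure D2:**
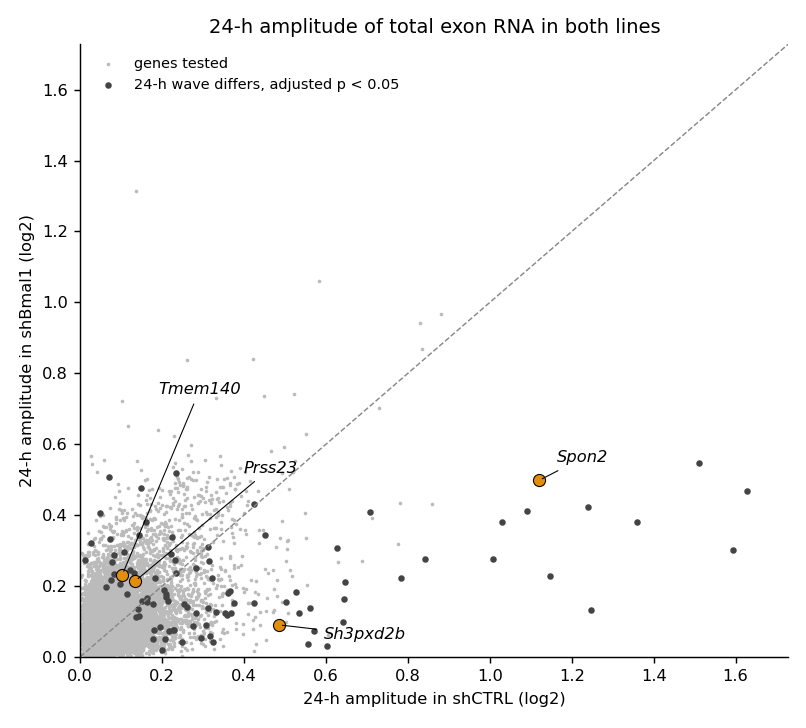
Fitted 24-h amplitude of total exon RNA in shCTRL (x axis) and shBmal1 (y axis), both in log2 units, for all 10912 genes tested (grey), the 93 whose wave differed between the lines (black) and the 4 genes (orange). Spon2 (1.12 and 0.50) and Sh3pxd2b (0.48 and 0.09) lie under the dashed line of equal amplitude, Prss23 and Tmem140 slightly above it.

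The line differences kept their direction in every alternative fit of total exon RNA, though the scaling moves how genes divide: 3748 genes were higher and 3619 lower in shBmal1 with scaled values, and 4985 and 2606 with RPKM as deposited, where the median gene stood at 0.09. On that scale the mean differences were 0.51 for Spon2, −0.31 for Prss23, −0.11 for Sh3pxd2b and −0.68 for Tmem140.

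Intron RNA in the total libraries holds unspliced transcripts and is a second readout that did not choose the genes. It comes from the same libraries as the total exon RNA and the same cultures as the 4sU RNA. The mean differences between the lines had the same directions as in exon RNA. Spon2 was 0.42 ± 0.07 higher in shBmal1 (limma adjusted p = 5.16e-05), where 28.9% of 10019 genes were higher. Prss23 was 0.46 ± 0.06 lower (adjusted p = 3.74e-06), Sh3pxd2b 0.57 ± 0.04 lower (adjusted p = 4.37e-09) and Tmem140 0.78 ± 0.07 lower (adjusted p = 6e-08), where 27.3% of genes were lower. Sh3pxd2b and Tmem140 were lower at all 12 time points, Prss23 at 11 of 12 and Spon2 at 3 of 12. Such counts were not made over all genes. None of the 4 had lines that did not overlap, against 6.16% of all genes.

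The total intron level of Spon2 ran from 0.156 scaled RPKM at 26 h to 0.707 at 40 h in shCTRL and from 0.347 at 24 h to 0.762 at 40 h in shBmal1. Its amplitude was 0.90 ± 0.07 in shCTRL (adjusted p = 5.2e-07, against 1.32% of genes passing) and 0.38 ± 0.07 in shBmal1 (adjusted p = 0.011, against 5.14%). The difference of the waves, 0.57, passed narrowly (adjusted p = 0.0475, as for 13 genes or 0.13%). It was no longer called in 9 of the 12 fits that left out 1 time point, with adjusted p up to 0.227, nor with 24-h terms only (0.142), with a linear trend (0.106), with a larger pseudocount (0.0617) or without the filter (0.0526). The intron length behind the Spon2 values is 16495 bases in all 4 groups, against 4737 bases for the whole RefSeq gene. Most of the counted interval therefore lies outside that gene model, for the 4sU intron values below as well.

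Sh3pxd2b total intron RNA ran from 0.561 at 44 h to 1.15 at 32 h in shCTRL and from 0.415 at 24 h to 0.648 at 34 h in shBmal1. The amplitude was 0.44 ± 0.04 in shCTRL (adjusted p = 3.84e-05) and 0.11 ± 0.04 in shBmal1 (adjusted p = 0.324), and the difference, 0.35, had an adjusted p of 0.0677. That difference passed without 24 h (0.0465) and without 26 h (0.0467). For Prss23 the waves were 0.26 ± 0.06 in shCTRL (adjusted p = 0.0807) and 0.13 ± 0.06 in shBmal1 (0.407), and for Tmem140 0.12 ± 0.07 (0.675) and 0.27 ± 0.07 (0.0957). The differences between the lines, 0.27 for Prss23 and 0.38 for Tmem140, did not pass (adjusted p = 0.456 and 0.327).

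Intron RNA in the 4sU libraries, the signal that chose the 4 genes, showed 2 shapes. Spon2 and Sh3pxd2b had the smaller wave in shBmal1, with fitted amplitudes of 0.91 ± 0.06 and 0.48 ± 0.05 in shCTRL against 0.47 ± 0.06 and 0.07 ± 0.05 in shBmal1. Prss23 and Tmem140 had an amplitude in shBmal1 at or above that of shCTRL, 0.48 ± 0.06 against 0.33 ± 0.06 and 0.36 ± 0.06 against 0.21 ± 0.06, with the peak at another time of day. The size of the difference was 0.80 for Spon2, 0.72 for Prss23, 0.42 for Sh3pxd2b and 0.56 for Tmem140. The order by F is not the order of these sizes: the next gene after Tmem140 was Sphk1, with 0.65, and Col4a1, at rank 10, had 0.31. These are the selecting values and support nothing beyond the choice.

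**Figure D3:**
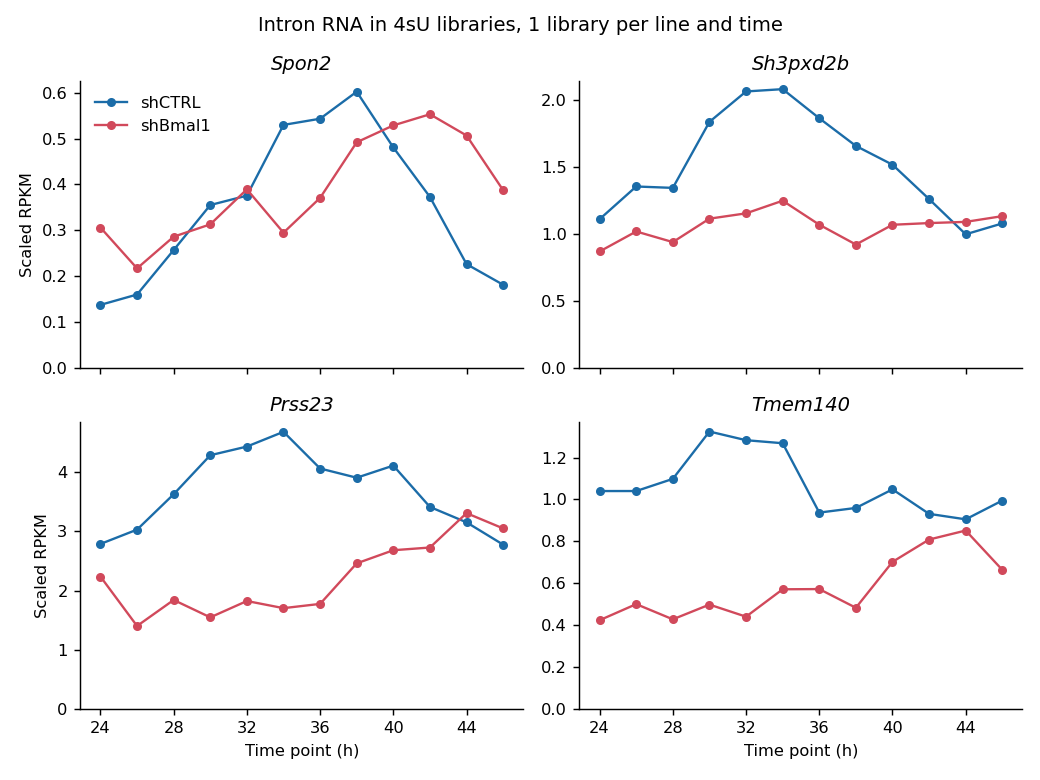
Scaled RPKM of intron RNA in 4sU libraries (y axis, from 0) against time point in hours (x axis), 1 library per point, shCTRL in blue and shBmal1 in red. In shBmal1, Prss23 and Tmem140 have their highest values at 44 h (3.31 and 0.852), when shCTRL has come down from its highest values at 34 and 30 h (4.69 and 1.32).

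Newly made Prss23 intron RNA in shCTRL was 2.79 and 3.03 scaled RPKM at 24 and 26 h, reached 4.69 at 34 h and ended at 2.78 at 46 h. The shBmal1 line began at 2.24, stayed between 1.40 and 1.84 from 26 to 36 h, and was 2.46, 2.68, 2.73, 3.31 and 3.05 from 38 to 46 h. The fitted peaks were at 34.5 ± 0.7 h and 42.7 ± 0.5 h, 8.23 ± 0.81 h apart. At 44 and 46 h shBmal1 was the higher line, and at the other 10 time points the lower.

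Newly made Tmem140 intron RNA in shCTRL lay between 1.04 and 1.10 at 24 to 28 h, between 1.27 and 1.32 at 30 to 34 h, and between 0.905 and 1.05 afterwards. In shBmal1 it lay between 0.423 and 0.572 up to 38 h and was 0.702, 0.809, 0.852 and 0.664 at 40, 42, 44 and 46 h. The 2 lines did not overlap, as was so for 3.92% of the 10509 genes in this signal, which chose the gene. The fitted peaks, 30.8 ± 1.1 h and 41.9 ± 0.7 h, were 11 ± 1.3 h apart.

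Newly made Spon2 intron RNA went from 0.137 at 24 h to 0.602 at 38 h in shCTRL and was 0.181 at 46 h, whereas in shBmal1 it was lowest at 26 h (0.217) and highest at 42 h (0.553). The peaks were at 36.3 ± 0.2 h and 40.4 ± 0.5 h, 4.13 ± 0.52 h apart. Most of the interval counted for this Spon2 signal lies outside the RefSeq gene, as given above. For Sh3pxd2b the shCTRL values went from 1.11 at 24 h to 2.08 at 34 h and 0.996 at 44 h, and the shBmal1 values from 0.868 at 24 h to 1.25 at 34 h. Its peaks in this signal, 33.7 ± 0.4 h and 35.2 ± 2.4 h, differ by less than their errors. Sh3pxd2b exon RNA from the same 4sU libraries had amplitudes of 0.53 ± 0.04 in shCTRL and 0.17 ± 0.04 in shBmal1. Those exon peaks were at 34.7 ± 0.3 h and 39.2 ± 1.0 h, 4.53 ± 1.01 h apart.

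The mean 4sU intron level in shBmal1 was 0.22 above that in shCTRL for Spon2 and 0.76, 0.47 and 0.89 below it for Prss23, Sh3pxd2b and Tmem140. With RPKM as deposited, where the median gene is at −0.45, the Spon2 difference reads −0.23, so its sign rests on the scaling. The other 3 stay negative.

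**Figure D4:**
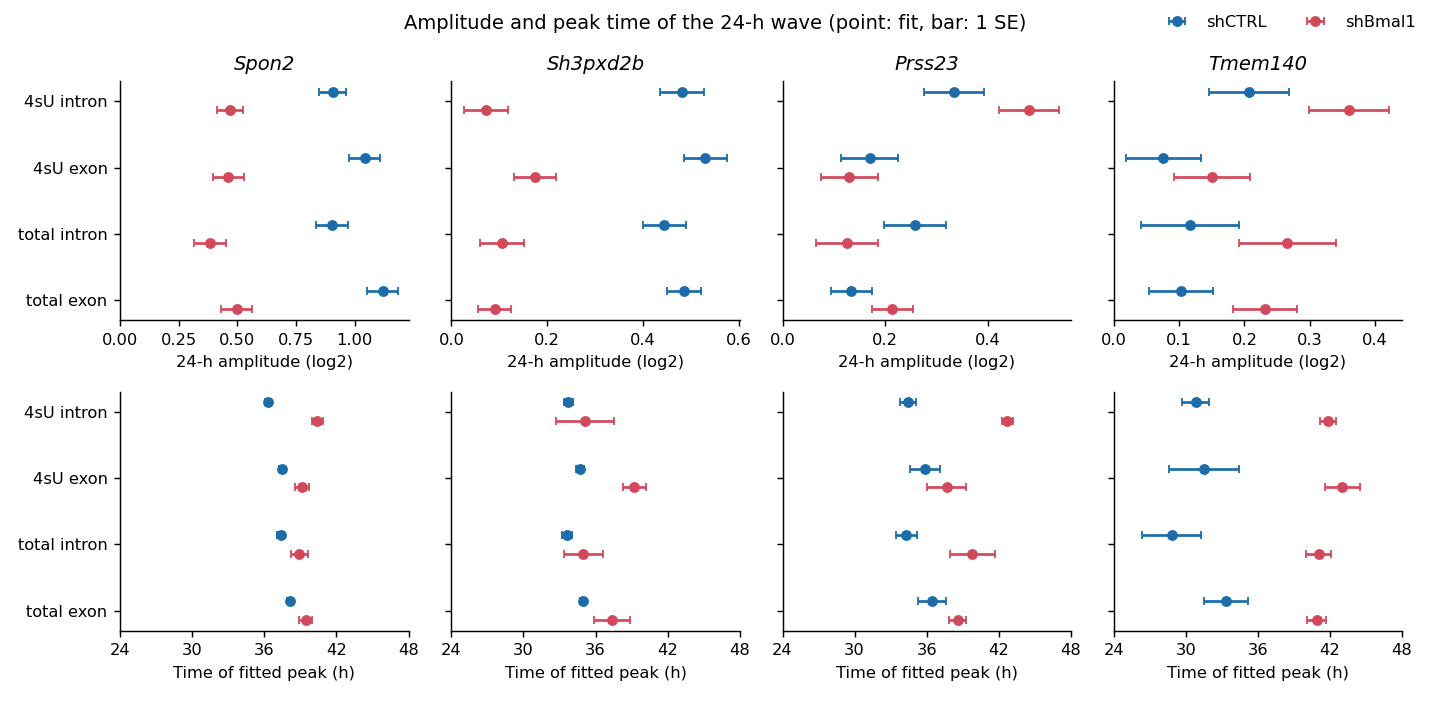
Fitted 24-h amplitude (upper row, log2 units) and time of the fitted peak (lower row, hours) for each gene in the 4 kinds of RNA, shCTRL in blue and shBmal1 in red, bars 1 SE. For Spon2 and Sh3pxd2b the blue amplitude is the larger in all 4 kinds, and for Prss23 the peaks of the lines lie 8.23 h apart in 4sU intron RNA and 2.16 h apart in total exon RNA.

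The layers of each gene were then set side by side. In shCTRL the Spon2 peak came at 36.3 h in 4sU intron RNA, 37.5 h in 4sU exon RNA and 38.1 h in total exon RNA, so that the exon level peaked 1.83 ± 0.33 h after the newly made intron signal. For Sh3pxd2b in shCTRL the same step was 1.22 ± 0.46 h, from 33.7 to 35.0 h. In shBmal1 the step was −0.98 ± 0.69 h for Spon2, the exon peak being the earlier, and 2.19 ± 2.84 h for Sh3pxd2b, whose wave was not called there. In shCTRL the amplitude in total exon RNA was 1.24 times that of the newly made intron RNA for Spon2. For Sh3pxd2b it was 1.01 times, equal within the errors. The Spon2 ratio depends on the pseudocount, which weighs more on low intron values. With 0.1 in place of 0.02, the Spon2 4sU intron amplitude in shCTRL fell from 0.91 to 0.72.

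For Prss23 and Tmem140 the exon RNA carried a smaller wave than the newly made intron RNA. The amplitude in total exon RNA was 0.40 times that in 4sU intron RNA for Prss23 in shCTRL and 0.45 times in shBmal1. For Tmem140 these ratios were 0.50 and 0.65. The ratios of total intron RNA to 4sU intron RNA were 0.77 and 0.26 for Prss23 and 0.56 and 0.74 for Tmem140. The 4sU intron values chose the genes, so a ratio under 1 is partly built into the choice. In shCTRL the total exon wave of neither gene was called. In shBmal1 the Prss23 peak in total exon RNA, 38.6 h, stood 4.10 ± 0.85 h before that in 4sU intron RNA, 42.7 h. The 4sU exon RNA of Prss23, although from the same libraries as the intron RNA, had an amplitude of 0.17 ± 0.06 in shCTRL and 0.13 ± 0.06 in shBmal1 and peaks at 35.9 ± 1.2 h and 37.7 ± 1.6 h, so the late peak of the intron signal was not seen in it. For Tmem140 the 4sU exon amplitudes were 0.08 ± 0.06 and 0.15 ± 0.06 with peaks at 31.5 ± 2.9 h and 43.0 ± 1.5 h.

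The ratio of newly made to total exon RNA, on the log2 scale and relative to the median gene, separates the 4 genes by line less than the levels do. The mean difference in this ratio, shBmal1 minus shCTRL, was 0.03 ± 0.03 for Prss23, 0.04 ± 0.03 for Sh3pxd2b and 0.02 ± 0.05 for Tmem140. For Spon2 it read −0.16 ± 0.03, but the transcript length behind its shCTRL 4sU exon values is 1831 bases against 2034 in the other 3 groups. With the values rescaled to 1 length for all groups the difference was −0.00442, a correction made after the lengths were seen. It assumes that the same reads would be counted over either length, which was not tested, so the Spon2 difference is uncertain. With that correction the Spon2 ratio ran from −0.32 at 26 h to −0.97 at 44 h in shCTRL, and in shBmal1, where no correction applies, from −0.56 at 30 h to −0.76 at 46 h.

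Which other genes follow the 4 in total exon RNA was read from Pearson's r over the 24 total libraries after each line was centred on its own mean. These correlations share libraries and depth and are given without a p. The partners were chosen in the same total exon libraries, so a wave like that of the member is partly built into the choice. The limma p-values given for partners below describe those genes and are no separate evidence for the 4. Nor are the r values in 4sU intron RNA, which use the values that chose the 4 genes. Spon2 went most closely with Mmp11, a matrix metalloproteinase (r = 0.965), Tgfb3, a transforming growth factor beta ligand (0.953), and Camta1, a calmodulin-binding transcription activator (0.923). Mmp11 had an amplitude of 0.71 in shCTRL and 0.41 in shBmal1 (difference 0.47, limma adjusted p = 0.0488), and unlike Spon2 its mean level was 1.42 lower in shBmal1. In 4sU intron RNA the r with Spon2 was 0.916 for Mmp11, 0.700 for Tgfb3 and −0.03 for Camta1.

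Sh3pxd2b went most closely with Prag1, a pseudokinase adaptor (r = 0.942), Adamts4, an aggrecan-cleaving protease (0.941), and Arntl itself (0.908). In 4sU intron RNA Arntl had the highest r of these 3 with Sh3pxd2b, 0.938. Both genes stood high in the order that chose the members (Arntl at rank 4, Sh3pxd2b at 12), so a high r is partly built in. The waves of all 3 in total exon RNA were smaller in shBmal1: Prag1 had 0.64 and 0.16 (difference 0.48, limma adjusted p = 0.00653), Adamts4 0.84 and 0.28 (0.59, 0.00196) and Arntl 1.59 and 0.30 (1.32, 3.54e-06). Their shCTRL peaks lay at 35.9, 35.3 and 35.9 h, near the 35.0 h of Sh3pxd2b.

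Prss23 went most closely with Prss23os (r = 0.931), named as its opposite-strand transcript, then with the chemokine gene Ccl7 (0.913) and the complement protease gene C1s1 (0.910). Prss23os stood at a median of 146 deposited RPKM in shCTRL and 117 in shBmal1 total RNA. The r with Prss23 in 4sU intron RNA was 0.853 for Prss23os, 0.181 for Ccl7 and 0.686 for C1s1. Tmem140 went most closely with Cyren (r = 0.963), a gene for a regulator of DNA end joining that lies on the other strand and overlaps 3176 bases of Tmem140 (chr6:34871771-34874946), then with S1pr3, a sphingosine-1-phosphate receptor (0.898), and Ikbke, a kinase of innate immune signalling (0.880). No label or header states whether the counting kept the strands apart. Reads may therefore be shared between Prss23 and Prss23os, and between Tmem140 and Cyren, which was not tested. S1pr3 and Ikbke had a larger wave in shBmal1 than in shCTRL, 0.24 against 0.13 (difference 0.29, limma adjusted p = 0.0421) and 0.22 against 0.08 (0.29, 0.0309), with shBmal1 peaks at 40.2 and 41.6 h. The r with Tmem140 in 4sU intron RNA was 0.343 for Cyren, 0.627 for S1pr3 and 0.376 for Ikbke.

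Among themselves the 4 genes went together less closely. The r in total exon RNA was highest for Prss23 with Tmem140 (0.745) and lowest for Sh3pxd2b with Tmem140 (0.434). In 4sU intron RNA it was highest for Spon2 with Prss23 (0.744) and lowest for Spon2 with Tmem140 (0.348).

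The nearest expressed genes on either side, among those placed by the RefSeq table, which does not list Prss23os, were Ywhah (186 kb away) and Ctbp1 (29.5 kb) for Spon2, Fzd4 (97.7 kb) and Hikeshi (391 kb) for Prss23, Hba-a1 (63.3 kb) and Ubtd2 (27.2 kb) for Sh3pxd2b, and Agbl3 (2.21 kb), Wdr91 (5.48 kb) and the overlapping Cyren for Tmem140. None was called for a difference of the 24-h wave in total exon RNA, with limma adjusted p from 0.207 for Cyren to 0.906 for Hba-a1. Ywhah, Fzd4 and Cyren were lower in shBmal1, by 0.51, 0.68 and 0.51 on the log2 scale (adjusted p = 4.07e-11, 1.5e-09 and 5.21e-09). Hba-a1 is a globin gene with a near-identical copy and at most 1.43 deposited RPKM, so its values are uncertain.

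The families of the 4 genes were read from lists with the 4 genes left out. Among 13 secreted serine proteases and receptors tested, 0 had a 24-h wave that differed between the lines in total exon RNA by limma, where 0.852% of all genes did, so that a count of 0 is near the background. The smallest adjusted p values were those of the complement proteases C1ra (0.0968) and C1s1 (0.219), whose amplitude was 0.10 and 0.14 in shCTRL and 0.41 and 0.43 in shBmal1. The median size of the difference in this list was 0.16, beside 0.11 over all genes tested.

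None of the 9 spondin, thrombospondin and CCN genes tested was called by limma: Thbs1, a thrombospondin, had 0.44 and 0.13 (adjusted p = 0.122) and Ccn1, a matricellular protein, 0.41 and 0.15 (0.254). Ccn4, another CCN gene, had 0.35 and 0.067 (0.205), and Thbs3, another thrombospondin gene, had 0.20 and 0.26 (0.323). A count of 0 in 9 is near the 0.852% of all genes. The median difference of this list was 0.22.

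Of 33 podosome and invadopodium genes, 1 was called besides Sh3pxd2b itself, Adam19, a membrane metalloprotease, with 0.31 in shCTRL and 0.14 in shBmal1 (difference 0.34, limma adjusted p = 0.00716). Vcl, which encodes vinculin, had 0.12 and 0.10 (adjusted p = 0.214) and the gelatinase gene Mmp9 0.27 and 0.30 (0.226). The median difference of the list was 0.10, and the 1 call of 33 stands beside 0.852% of all genes. In mean level 10 of the 33 were higher and 18 lower in shBmal1, beside 34.3% and 33.2% of all genes. Of 20 interferon-response genes, 0 were called by limma, with Gbp2, a guanylate-binding protein gene, at 0.34 and 0.25 (difference 0.57, adjusted p = 0.0655) and the transcription factor gene Irf1 at 0.08 and 0.26 (0.26, 0.13). In that list 5 of 20 genes were higher and 9 lower in shBmal1, beside the same 34.3% and 33.2% of all genes. Gbp2 was 1.38 lower and Irf1 0.42 lower, whereas Isg15, a ubiquitin-like interferon-induced gene, was 0.25 higher (limma adjusted p = 0.0289), with waves of 0.26 and 0.25 that did not pass the test of a difference (adjusted p = 0.187).

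The clock genes gave the scale of the contrast, since 13 of 17 tested were called, with a median difference of 0.68. Per2 had 1.36 in shCTRL and 0.38 in shBmal1, Cry1 1.15 and 0.23, and Nr1d1 1.51 and 0.55, with limma adjusted p of 7.45e-08, 8.1e-08 and 9.66e-07. The difference of Spon2, 0.67, was near the middle of that list and that of Sh3pxd2b, 0.42, was below its median. Of the 10 fibroblast markers and the 4 markers of other cells that were tested, 0 were called by limma. The smallest adjusted p values were 0.112 for Fn1 and 0.196 for Lyz2. A count of 0 here is near the 0.852% of all genes.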

How the data were processed

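RNA from 48 libraries was analysed (4 groups of 12 time points). Per the submitters' processing notes, Trim Galore, HOMER 4.11.1 and mm10/GRCm38.p6 were used; no aligner is named in the sources read. The authors deposited 1 exon and 1 intron table of RPKM values, per the file headers 1 column per library. Read totals (48873013 to 76260143) were recovered from the steps of low values, and the 4 genes rest on 130 reads or more per library.

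Here RPKM was divided by size factors per RNA kind and feature, filtered at a mean of 0.5 (exon) or 0.1 (intron), and fitted as log2(value + 0.1 or 0.02) with limma 3.58.1 (R 4.3.3, trend and robust): a mean and 24-h and 12-h cosine terms per line. A fold change on that scale understates low genes. Calls used a Benjamini-Hochberg adjusted p under 0.05 over all genes of a layer. The fit was tested on simulated data. Spike-ins were not analysed here.

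The members and lists were chosen with earlier results of these data known. Named genes were the 4 genes, Arntl, for each of the 4 genes the 3 with the highest correlation and the nearest expressed gene on each side, and from each list up to 4 with the smallest p. The result of 1 list is not reported here. Col4a1 and Sphk1 were named after their values were seen. Of the genes named this way, 43 had the same transcript length in both lines, 2 did not (Adamts4, by 3 bases, and Plaur) and 5 could not be read. Alternatives were the scaling, pseudocount, filter, 12-h terms, a linear trend, the time point as a block, and leaving out each time point.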

Additional observations from a re-analysis of the deposited data

Results flagged for a closer look

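The 24-h wave differed between the lines for Spon2 in total exon RNA (limma adjusted p = 0.00161), with a lower amplitude in shBmal1, 0.50 ± 0.07 against 1.12 ± 0.07 (SE). The same test gave an adjusted p of 0.00027 for Sh3pxd2b in total exon RNA, with 0.09 ± 0.04 in shBmal1 against 0.48 ± 0.04. For Spon2 in total intron RNA it gave 0.0475, with 0.38 ± 0.07 against 0.90 ± 0.07, a call that 9 of 12 fits without 1 time point did not make.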

How the results depend on the processing

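Of 196 results of the 4 genes in total RNA under another setting, other than leaving out a time point, 186 kept their direction and their side of the threshold, and all line differences in total RNA did. With a linear trend in time, the shBmal1 wave in total exon RNA was 0.13 for Prss23 (limma adjusted p = 0.293), 0.31 for Spon2 (0.399) and 0.072 for Tmem140 (0.919), that of Spon2 in total intron RNA 0.28 (0.587), and the shCTRL wave of Prss23 in total intron RNA passed at 0.27 (0.0223). The genes called were then 13 (exon, shBmal1), 112 (exon, shCTRL), 30 (exon, difference), 1 (intron, shBmal1) and 45 (intron, shCTRL). With 24-h terms only they were 61 (exon, difference), 212 (intron, shBmal1) and 78 (intron, shCTRL), and with RPKM as deposited 21 (intron, difference). The Spon2 difference in total intron RNA lost its call at 0.57 with 24-h terms only (0.142), 0.46 with a larger pseudocount (0.0617), 0.63 with a linear trend (0.106) and 0.57 without the filter (0.0526). With the time point as a replicate block the difference was called for 48 genes in exon RNA and 8 in intron RNA, and that of Spon2 in intron RNA was 0.57 (0.169). Residuals of the same time point in the 2 lines correlated from −0.66 (32 h) to 0.57 (26 h) and above 0.1 at 4 of 12 time points, so the lines were not treated as paired. The cause of these changes was not tested.

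Leaving out 1 time point gave these ranges of genes called: 380 to 1825 (exon, shBmal1), 203 to 474 (exon, shCTRL), 39 to 172 (exon, difference), 37 to 560 (intron, shBmal1), 59 to 165 (intron, shCTRL) and 7 to 24 (intron, difference). The lowest counts of both shBmal1 waves came without 40 h. The amplitude of Tmem140 in shBmal1 exon RNA ranged from 0.21 to 0.26, of Spon2 in shBmal1 intron RNA from 0.35 to 0.41 and of Prss23 in shCTRL intron RNA from 0.25 to 0.29. The intron differences ranged from 0.31 to 0.39 for Sh3pxd2b and from 0.51 to 0.65 for Spon2.

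In the 4sU libraries, RPKM as deposited gave intron line differences of −0.23 for Spon2, the opposite sign, and −1.24, −0.94 and −1.36 for Prss23, Sh3pxd2b and Tmem140. A larger pseudocount gave a Spon2 amplitude of 0.72 and difference of 0.64.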
